A study of Mus musculus with 3 samples.

Results

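The genes of the histones, the proteins around which nuclear DNA is wound, were measured in proximal incisor mesenchyme of mice called DKO in the labels. These mice carried Gli1-CreER, a Cre recombinase driven by the Gli1 promoter and switched on by tamoxifen, and floxed alleles of Arid1a and Arid1b (Arid1afl/fl, Arid1bfl/fl), which encode alternative subunits of the BAF chromatin remodeling complex. All 3 libraries came from mice given tamoxifen at 1.5 mg per 10 g of body weight, collected 4 days later at 1 month of age, and no other group was analysed here, so no comparison between genotypes was made. Such a Cre acts in cells that express Gli1 when tamoxifen is given, so the tissue can also hold cells with intact alleles. That the 3 libraries are from different animals is not stated in the labels, so SDs and tests measure the spread between libraries alone, and this may be technical. Values are normalized gene counts as deposited, in normalized units, given in the order of replicates 1, 2 and 3.

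Members were the protein-coding rows whose symbol follows the naming patterns of histone genes. These patterns matched 40 of 19381 listed rows, of which 37 were protein coding. H13 was set aside because it encodes a signal peptide peptidase and no histone, which left 36 histone genes. By their older GENCODE symbols 30 of them are replication-dependent and 6 are variants. The annotation holds 67 replication-dependent protein-coding genes, and 35 of them were not analysed here. A further 6 histone genes, among them H2ax, Macroh2a1 and Macroh2a2, match only by an older symbol and are given where a variant is set against them.

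Nucleosomes hold pairs of the core histones H2A, H2B, H3 and H4, and linker histone H1 binds the DNA where it enters and leaves. Replication-dependent genes supply the bulk of these proteins during S phase, lie in clusters, mostly lack introns, and give messages that usually end in a conserved stem-loop in place of a poly(A) tail. Variant genes lie alone, are expressed outside S phase too, and give polyadenylated messages whose proteins replace the canonical ones at chosen sites. How the RNA was selected for these libraries is not given in the sources used here, and its part in the level of messages without a poly(A) tail was not tested.

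The stem-loop letters separated the members with the highest values into different kinds of transcript, so the ends of 5 of them are shown. Each window is from the GENCODE M21 transcript (mm10), the capitals mark the stem-loop on the transcript strand, and the gene's family follows its name.
H1f2 (H1, chr13:23739505-23739534, plus strand): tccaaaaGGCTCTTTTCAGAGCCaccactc
Hist1h2ap (H2A, chr13:21833026-21833051, minus strand): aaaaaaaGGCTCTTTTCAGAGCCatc
Hist1h2ao (H2A, chr13:21810891-21810920, plus strand): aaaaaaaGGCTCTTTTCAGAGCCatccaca
H2bc6 (H2B, chr13:23585524-23585553, minus strand): aaccaaaGGCTCTTTTCAGAGCCacccaac
H4c9 (H4, chr13:22040959-22040988, minus strand): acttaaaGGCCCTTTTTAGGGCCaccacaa
All members with a match shared the letters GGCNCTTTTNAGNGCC, and the pattern searched was this one with the third base and its partner in the stem left free as well. The letters were found in 23 of 30 replication-dependent transcripts, 24 to 58 bases after the stop codon, and in 0 of 6 variant transcripts. Among listed protein-coding genes with a transcript searched, 50 of 15028 (0.333%) held them. The commonest form, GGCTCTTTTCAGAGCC, stood in 15 members and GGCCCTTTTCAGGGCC in 4. Transcripts of H2bc4 and H2bc21, both H2B genes, held no match. The H2bc4 transcript has 2 exons, whereas the H1f2 transcript holds the letters and runs on for 840 bases past them. The Hist1h2ap transcript ends 3 bases past the letters.

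Upstream sequences of 6 genes whose levels are set side by side later follow, with 4 short motifs on either strand in capitals. These are the CCAAT box, the TATAAA form of the TATA box, the octamer known from H2B promoters (ATTTGCAT) and the H1 box (AAACACA). The first is the mm10 stretch of 250 bases between the starts of H2ac6 and H2bc4, written on the strand of H2ac6, with the H2bc4 start beyond its left end.
H2ac6 and H2bc4 (chr13:23683949-23684198, minus strand): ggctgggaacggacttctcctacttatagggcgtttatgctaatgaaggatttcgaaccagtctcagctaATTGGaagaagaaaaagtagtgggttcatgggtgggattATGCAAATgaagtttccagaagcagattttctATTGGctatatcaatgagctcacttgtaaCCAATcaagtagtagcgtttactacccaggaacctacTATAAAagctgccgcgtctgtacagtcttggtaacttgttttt
The others are the 250 bases before the RefSeq start, on GRCm38, of 2 linker histone genes and of both genes of the replacement H3. For H3f3a and H3f3b this start differs from the GENCODE start, and the printed stretches lie inside the GENCODE gene spans given later.
H1f2 (chr13:23738557-23738806, plus strand): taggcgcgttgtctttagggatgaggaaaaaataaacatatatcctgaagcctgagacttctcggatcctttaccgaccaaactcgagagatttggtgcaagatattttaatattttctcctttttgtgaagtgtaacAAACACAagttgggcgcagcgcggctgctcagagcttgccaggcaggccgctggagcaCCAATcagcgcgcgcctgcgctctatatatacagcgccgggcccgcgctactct
H1f4 (chr13:23622559-23622808, minus strand): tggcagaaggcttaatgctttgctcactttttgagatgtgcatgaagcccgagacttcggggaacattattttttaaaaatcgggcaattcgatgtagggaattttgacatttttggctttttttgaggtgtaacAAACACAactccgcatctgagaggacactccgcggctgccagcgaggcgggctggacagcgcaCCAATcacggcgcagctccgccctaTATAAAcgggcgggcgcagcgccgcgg
H3f3a (chr1:180813606-180813855, minus strand): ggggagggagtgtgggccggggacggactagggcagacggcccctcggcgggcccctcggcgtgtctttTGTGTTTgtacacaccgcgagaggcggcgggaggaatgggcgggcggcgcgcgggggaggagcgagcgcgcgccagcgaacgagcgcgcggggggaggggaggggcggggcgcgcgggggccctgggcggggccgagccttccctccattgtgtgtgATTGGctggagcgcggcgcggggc
H3f3b (chr11:116024505-116024754, minus strand): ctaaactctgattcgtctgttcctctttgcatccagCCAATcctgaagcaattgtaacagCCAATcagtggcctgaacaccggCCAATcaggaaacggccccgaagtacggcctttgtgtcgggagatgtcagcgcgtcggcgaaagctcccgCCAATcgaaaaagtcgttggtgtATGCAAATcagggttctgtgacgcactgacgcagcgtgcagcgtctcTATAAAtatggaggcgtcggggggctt
A RefSeq window of 300 bases, from 250 before to 50 after the start, was found for 32 of 36 members. The shares below leave out H2bc4, Hist1h2ap, H2bc21 and H4c14, which had no window, and H2bc4 is the highest replication-dependent gene. CCAAT stood in 21 of 26 replication-dependent windows (80.8%), against 37.4% of all 32851 promoter windows, and TATAAA in 14 of 26 (53.8%) against 13.6%. The H1 box stood in 3 of 4 replication-dependent H1 windows, against 7.18% of all windows. Replication-dependent H4 windows held CCAAT in 2 of 7. ATTTGCAT stood in 3 of 26 replication-dependent windows, against 1.74% of all windows. These are matches of letters, and no binding was measured. The windows are not all separate sequences. The 250 bases before the start read the same for Hist1h2bq and Hist1h2br, and the Hist1h2ao window overlaps that of Hist1h2bq. Windows of H2ac18 and H2ac19, and those of H3c14 and H3c15, also share long stretches. Some matches, such as the CCAAT of H3c14, do not stand whole in the 250 bases before the start.

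Sequencing depth cannot be read from the scaled values. Totals were 986401, 958773 and 966163, and the 75th percentile over listed genes was 44.7 in each. Defining markers of incisor mesenchyme were present, with Gli1 at 45.7, 39.2 and 40.2. Replicate 2 stood apart in its odontoblast markers, which summed to 15287, 5871 and 17544 for the 3 members with a mean of at least 10, and 3 of 3 were lowest there. Markers of dental epithelium were also present and summed to 619, 985 and 695, with 6 of 6 highest in replicate 2. Of 4 male germ cell markers, 2 were listed and neither reached a mean of 10. In bulk tissue, fewer cells of a type and less RNA per cell cannot be told apart.

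Variant genes carried most of the signal of the 36 histone genes analysed, which leave out 35 annotated replication-dependent genes. The part of RNA selection in the level of either class was not tested. All 6 variants had a mean of at least 10, against 3 of 30 replication-dependent genes and 66.5% of the 15252 protein-coding genes. A mean of at least 1 was reached by 10 of 30 replication-dependent genes, against 88.2% of protein-coding genes. A mean of at least 100 was reached by 4 of 6 variants and 0 of 30 replication-dependent genes, against 13.7%. The median of the member means was 231 for variants, 0.577 for replication-dependent genes and 21.5 for all protein-coding genes.

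**Figure D1:**
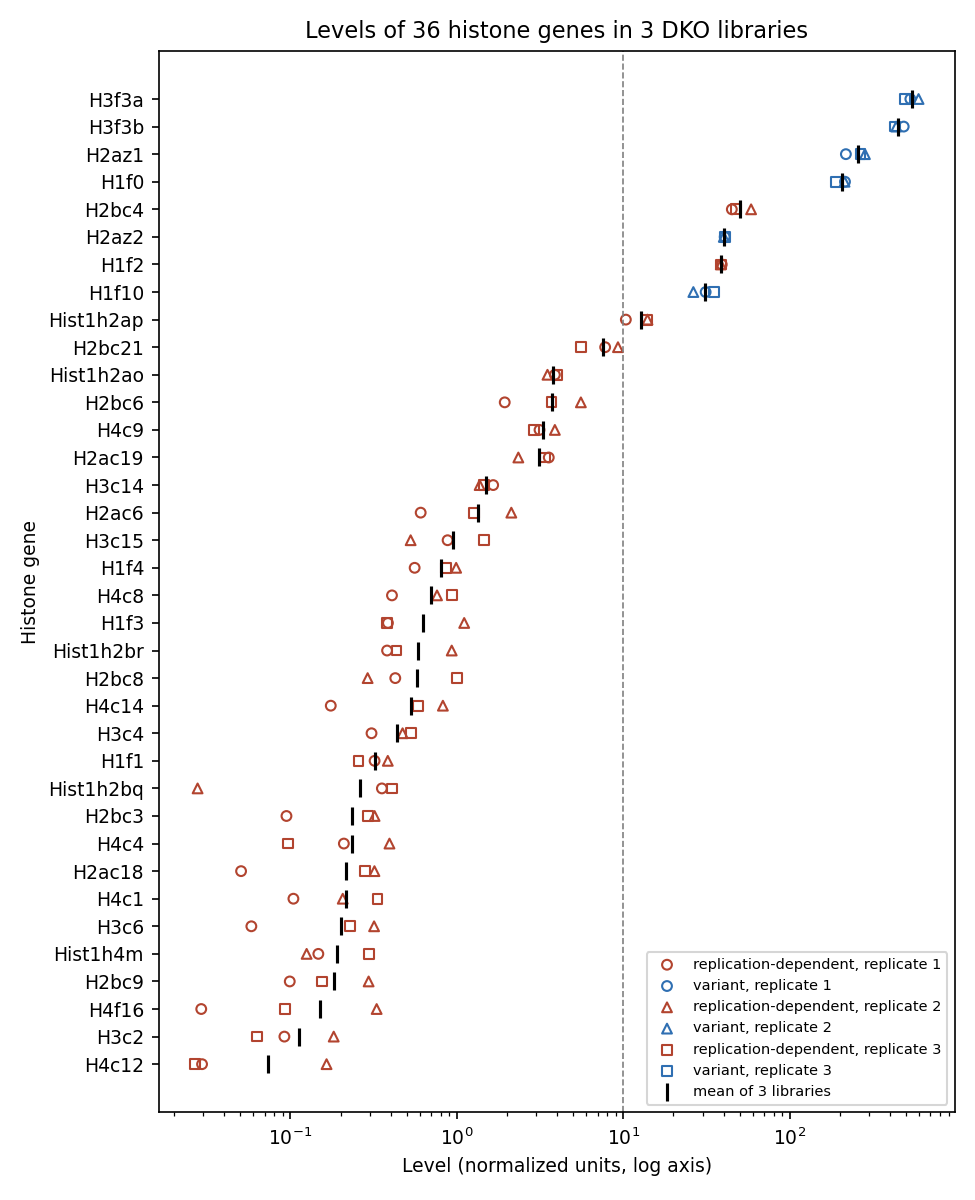
Normalized level (log axis) of each of the 36 histone genes in the 3 DKO libraries, with 1 symbol per library, a black bar at the mean and a dashed line at 10. The 6 variants (blue) all lie right of the line, and 3 of 30 replication-dependent genes (red) do.

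The 6 variant genes summed to 1517, 1592 and 1453 (1521 ± 69.8, SD, n = 3), which was 0.171% of the protein-coding total. The 30 replication-dependent genes summed to 122, 148 and 131 (134 ± 13.3, SD, n = 3), which was 0.0151%. The replication-dependent sum lay below the variant sum in every library and the ranges did not overlap. Per kilobase of exon, which allows genes of different length to be set side by side, the class sums were 126 ± 11.3 and 599 ± 23.4. The within-library log2 difference of these sums was -2.25 ± 0.11 (SD, n = 3), or 4.74-fold, with p = 0.25 by an exact permutation test that flips signs (two-sided), adjusted over 6 tests to 0.3. With 3 libraries 0.25 is the smallest p this test can give. Without H2bc4, the highest replication-dependent member, the difference was -2.86, and in values not divided by length it was -3.51. Without replicate 2, which stood apart in its odontoblast markers, it was -2.28, and the replication-dependent share was 0.0142%.

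H3f3a and H3f3b led all histone genes and together made 65.0% of the variant sum. Both encode the same replacement H3, which is put into chromatin outside DNA synthesis. H3f3a (chr1:180800832-180813943) stood at 530, 594 and 494 (539 ± 50.6, SD, n = 3) and ranked 136 of 15252 protein-coding genes. H3f3b (chr11:116021912-116027962) stood at 483, 436 and 428 (449 ± 30.0, SD, n = 3) and ranked 196. The 2 genes were nearly equal per kilobase of exon, at 154 ± 14.5 and 151 ± 10.1. Their within-library log2 difference, H3f3b minus H3f3a, was 0.10, -0.21 and 0.03, with no common sign (mean -0.03 ± 0.16, SD, n = 3; exact two-sided sign-flip permutation p = 1, adjusted 1). Without replicate 2 the mean difference was 0.07. The printed RefSeq promoters of these 2 genes differ in letters, since that of H3f3b holds TATAAA and the octamer and that of H3f3a neither. Exons of H3f3a overlap an antisense transcript, H3f3aos, and the strand setting of the counting is not given in the sources used here.

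H2az1 and H2az2 encode the forms of H2A.Z, a variant placed at promoters. H2az1 (chr3:137864487-137866922) stood at 217, 283 and 266 (255 ± 34.0, SD, n = 3). H2az2 (chr11:6427229-6444443) stood at 40.6, 40.1 and 40.7 (40.5 ± 0.307, SD, n = 3). H2az1 was the higher gene in every library, and was lowest in replicate 1, while H2az2 hardly varied. Per kilobase of exon the levels were 144 ± 19.2 and 24.8 ± 0.188, a log2 difference of 2.48 ± 0.20 (SD, n = 3) or 5.80-fold, with an exact sign-flip permutation p = 0.25, adjusted 0.3. With the longest coding transcript as length the log2 difference was 3.21. H2ax, whose protein is phosphorylated at DNA breaks, stood at 36.3, 38.1 and 44.4. It lay below H2az1 per kilobase of exon by a log2 difference of -2.29 ± 0.18 (SD, n = 3; exact sign-flip permutation p = 0.25, adjusted 0.3). With the longest coding transcript as length this difference was -3.01. Unlike the 6 variants of the rule, the H2ax transcript holds a stem-loop match.

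Macroh2a1 and Macroh2a2 encode the macroH2A variants, which carry a large extra domain. Macroh2a1 stood at 80.2, 86.3 and 84.9, and Macroh2a2 at 52.7, 46.8 and 52.1. Their order depended on the length taken for them. By all exons Macroh2a1 lay below Macroh2a2 (log2 difference -0.86 ± 0.13, SD, n = 3; exact sign-flip permutation p = 0.25, adjusted 0.3), by the longest coding transcript above it (0.79), and as deposited above it (0.72).

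H1f0 and H1f10 encode linker histones made outside S phase, H1f0 being known from cells that have stopped dividing. H1f0 (chr15:79028450-79030504) stood at 215, 213 and 189 (206 ± 14.2, SD, n = 3). H1f10 (chr6:87980421-87981637) stood at 31.2, 26.3 and 35.0 (30.9 ± 4.36, SD, n = 3). H1f0 was higher in each library, and the groups of values did not overlap. Per kilobase of exon the levels were 100.1 ± 6.91 and 25.4 ± 3.58, a log2 difference of 1.95 ± 0.28 (SD, n = 3) or 3.95-fold, with an exact sign-flip permutation p = 0.25, adjusted 0.3. In values as deposited the log2 difference was 2.70.

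In order of mean level as deposited, H3f3a and H3f3b came first, and the values of these 2 did not overlap, since the lowest H3f3a value was 494 and the highest H3f3b value 483. H2az1 and H1f0 came next, and their values did not overlap across libraries, with 217 as the lowest of H2az1 and 215 as the highest of H1f0. H2bc4 then lay above H2az2, H1f2 and H1f10 in each library. These orders are of deposited values, which also grow with gene length.

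Among replication-dependent genes, 3 made 76.2% ± 1.16 (SD, n = 3) of the class sum. H2bc4 (chr13:23684199-23692908), a core H2B gene, stood at 44.9, 58.6 and 47.6 (50.3 ± 7.25, SD, n = 3). H1f2 (chr13:23738808-23740367), a linker histone gene, stood at 39.0, 38.5 and 38.7 (38.8 ± 0.256, SD, n = 3). Hist1h2ap (chr13:21833026-21833507), an H2A gene, stood at 10.4, 14.0 and 13.9 (12.7 ± 2.06, SD, n = 3). H2bc4 was highest in replicate 2, H1f2 was level across libraries, and Hist1h2ap was lowest in replicate 1. Hist1h2ap shares 93.1% of its 50-base stretches with other genes, chiefly Hist1h2ao, so its value depends on how the counting split such reads. Just below a mean of 10 was H2bc21 at 7.78, 9.29 and 5.57 (7.54 ± 1.87, SD, n = 3). The other 27 members together summed to 27.7, 37.0 and 31.03.

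The families differed in how much of the level of their analysed members came from variants, as summed per kilobase of exon. In H3 the variant genes made 99.2% ± 0.192 of the family, in H1 83.0% ± 0.489 and in H2A 80.4% ± 0.886 (SD, n = 3). The H2A part counts H2az1 and H2az2 alone as variants, since Macroh2a1, Macroh2a2, H2ax and H2aj are not members by the rule. No listed H2B or H4 gene was a variant by the rule. The replication-dependent H2B sum per kilobase was 43.5, 57.2 and 46.8, the highest of the 5 families on average. The H4 sum was 6.14, 9.14 and 7.91, and the H3 sum 2.23, 2.32 and 3.02. The replication-dependent H3 and H4 sums, proteins that enter nucleosomes together, were thus the lowest of the 5, and their values did not overlap with those of H1, H2A or H2B. The number of listed genes was 4 for H1, 5 for H2A, 8 for H2B, 5 for H3 and 8 for H4.

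**Figure D2:**
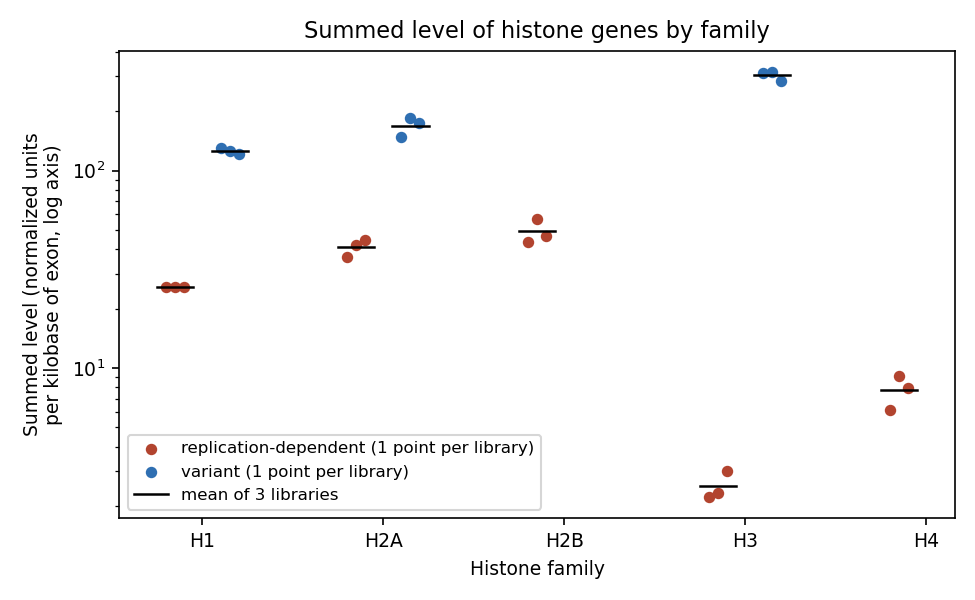
Summed level per kilobase of exon (log axis) for the replication-dependent (red) and variant (blue) genes of each histone family, with 1 point per library and a bar at the mean. The H3 family spans the widest gap, from 2.52 for replication-dependent genes to 305 for variants, and H2B and H4 have no variant point.

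Within the H1 family the replication-dependent level came almost wholly from H1f2. H1f4 stood at 0.558, 0.990 and 0.860 and H1f3 at 0.385, 1.11 and 0.380, both linker histone genes. Neither came near H1f2 in any library. The printed promoters of H1f2 and H1f4 each hold the H1 box and a CCAAT, and H1f4 also holds TATAAA. Near the same place H1f2 reads tatatata, which the exact letters searched do not match. Per kilobase of exon the means were 24.8 for H1f2 and 0.416 for H1f4. The transcript of H1f4 shares 496 exonic bases with H2bc6, which lowers the certainty of both values.

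Among H2A genes below Hist1h2ap, Hist1h2ao stood at 3.88, 3.50 and 4.03 and H2ac19 at 3.57, 2.34 and 3.39. All stretches of H2ac19 recur in other genes, and an antisense transcript covers the whole gene. H2ac6 stood at 0.606, 2.12 and 1.27, with the lowest value in replicate 1. The H2B gene H2bc6 stood at 1.94, 5.56 and 3.70, and its replicates differed more than those of any other member on the log2(value + 1) scale (SD 0.58). Hist1h2br, a further H2B gene, stood at 0.381, 0.931 and 0.434.

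The highest H3 genes of the clusters were H3c14 at 1.65, 1.37 and 1.46 and H3c15 at 0.880, 0.528 and 1.45. The values of H3c14 rest on sequence that recurs in full elsewhere, since a processed transcript, Gm20634, covers its exon on the same strand. The highest H4 genes were H4c9 at 3.14, 3.88 and 2.92 and H4c8 at 0.407, 0.760 and 0.931. H4c9 exceeded H4c8 in each library. The remaining 15 replication-dependent genes not yet given by value had means between 0.0737 and 0.573. These values are small: the smallest value in the table was 0.0291, 0.0275 and 0.0233, held by 234, 236 and 205 genes, and it is not known whether it is a floor or the worth of 1 read.

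The level of a replication-dependent gene differed sharply from that of its divergent neighbor. In 3 head-to-head pairs, the starts of an H2A and an H2B gene lay 235 to 267 bases apart. H2bc4 had a mean of 50.3 and H2ac6, across 250 bases, a mean of 1.33, which is 37.7-fold as deposited. Per kilobase of exon the means were 43.5 and 0.538, or 81.0-fold. This fold depends on the length taken, since H2ac6 has 2482 exon bases, 2010 of them past the stem-loop letters, and H2bc4 has 1156. Hist1h2ap at 12.7 faced Hist1h2br at 0.582, which is 21.9-fold as deposited and 100.4-fold per kilobase of exon. The latter depends on the length taken, since Hist1h2br has 2212 exon bases and a longest coding transcript of 1256. Hist1h2ao at 3.80 faced Hist1h2bq, named here after its values were seen, at 0.354, 0.0277 and 0.408. The higher gene of the pair was the H2B gene at the first and the H2A gene at the other two, in 3 of 3 libraries each. The stretch printed between H2ac6 and H2bc4 holds 3 CCAAT, 1 TATAAA and 1 octamer. The TATAAA reads on the strand of H2ac6 and lies toward the H2ac6 start, so it is not placed alike for both genes. The Hist1h2ap and Hist1h2ao pairs are near-identical copies, so their values are uncertain.

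The 23 listed members of the Hist1 cluster summed to 108, 133 and 118, the 6 of the Hist2 cluster to 14.1, 14.7 and 12.7. All 3 replication-dependent genes with a mean of at least 10 lie in the Hist1 cluster on chromosome 13. H2bc4 and H1f2 start 54.6 kilobases apart, and the 4 listed genes that follow H1f2 within 24.9 kilobases had means of 0.112 to 0.320. No listed gene of the cluster starts between H2bc4 and H1f2, and the listed genes on either side were lower. Hist1h2ap starts 1851 kilobases from H2bc4, also among lower genes.

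**Figure D3:**
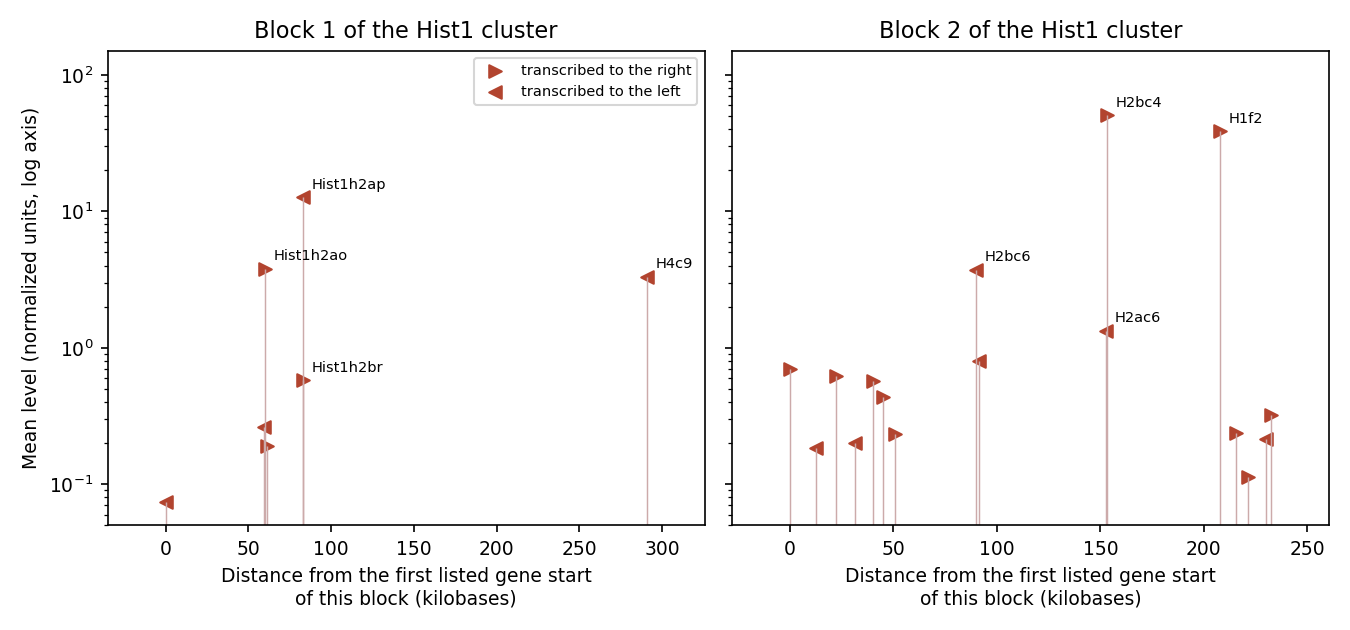
Mean level (log axis) of the 23 listed Hist1 genes by the distance of their start from the first listed start of each of the 2 blocks of the cluster, in kilobases, with arrowheads for the direction of transcription. H2bc4 and H1f2 rise above the genes around them, and each divergent pair shows 1 high and 1 low gene.

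Levels of replication-dependent genes overlapped between groups set by their annotated transcript ends. The 8 members whose transcript ends within 100 bases of the stem-loop letters had means of 0.112 to 12.7 (median 0.467). The 15 whose annotation runs further had means of 0.151 to 38.8 (median 0.624), and the 7 without the letters 0.0737 to 50.3 (median 0.320). On a log axis the 3 ranges overlapped over most of their length, and H2bc4 and H1f2 lay above the range of the first group. Annotated ends limit this grouping, since the H4c12 transcript, 1 of the 7, has 0 annotated bases after the stop codon and could not hold the letters there. Of the 30 members, 20 had a mean below 1, and an effect of the end on level was not tested. The 2 highest genes, H2bc4 and H1f2, have 742 and 880 annotated bases after the stop codon, and Hist1h2ap has 57.

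**Figure D4:**
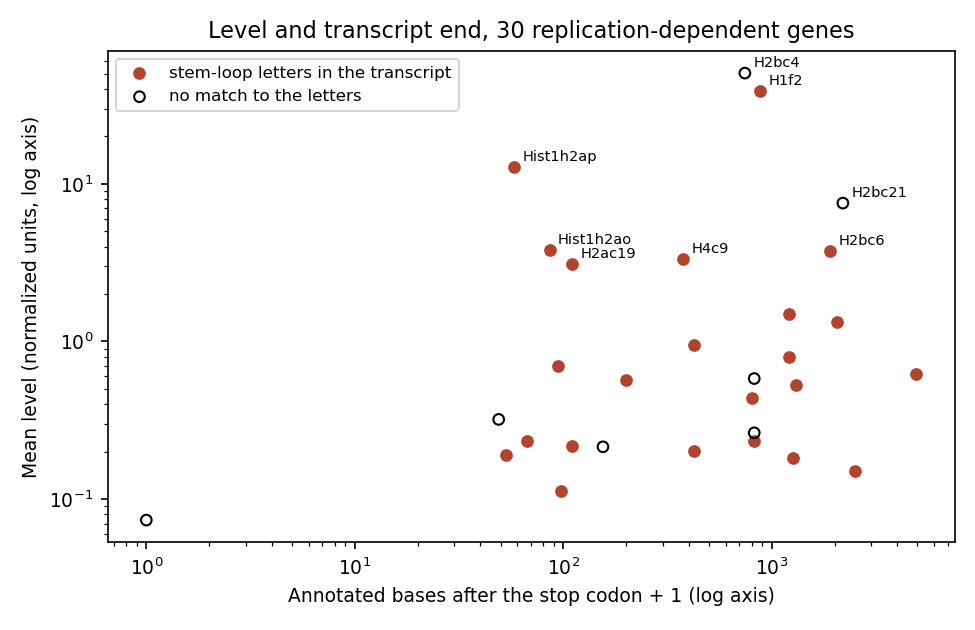
Mean level (log axis) of the 30 replication-dependent genes against the annotated bases after the stop codon plus 1 (log axis), filled where the transcript holds the stem-loop letters and open where it does not. High and low genes occur at long ends, and Hist1h2ap, at 57 bases, is the highest of those with short ends.

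The spread of well expressed histone genes between libraries was near that of other genes. The median SD of log2(value + 1) was 0.13 over the 9 members with a mean of at least 10, against 0.10 over all 10388 genes at that level. Of the 9 members with a mean of at least 10, 0 had an SD of log2(value + 1) above 0.5 (background 1.89%) and 0 had one above 1 (background 0.472%). A count of 0 among 9 is near what these shares give, and no test was run. Without a minimum on the mean, 1 of 36, H2bc6, passed 0.5, against 2.87% of all genes, and 0 of 36 passed 1, against 0.48%. Of the 9, 3, 4 and 2 were highest in replicates 1, 2 and 3, against 31.2%, 34.2% and 34.6% of genes at that level, and 3 were lowest in each, against 38.1%, 27.8% and 34.2%. H1f2 and H2az2 had the smallest SDs of the 9, both 0.01, and Hist1h2ap the largest, 0.23.

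Replication-dependent genes were mostly highest in replicate 2. Over members of any mean, 19 of 30 were highest there, against 34.3% of all genes, and 15 of 30 were lowest in replicate 1, against 34% of all genes. Replicate 1 was highest for 3 of 30 (35.3% of all genes) and replicate 3 for 8 (30.4%), and the lowest value fell in replicate 2 for 8 (29.4%) and in replicate 3 for 7 (36.6%). Among the 20 with a mean below 1, 13 were highest in replicate 2, against 36.3% of all genes that low. Of the 18 members that share at most 50% of their stretches with another gene, 13 were highest in replicate 2, against 34.3% of all genes. The median deviation from the gene mean was -0.12, 0.12 and 0.04 on the log2(value + 1) scale, against 0.00, 0.01 and -0.01 over all genes. Leaving replicate 2 aside, 20 of 30 were higher in replicate 3 than in replicate 1, against 47.3% of all genes, and so were 15 of the 20 with a mean below 1, against 41.1% of all genes that low. The 6 variants showed no such lean, with 2 highest in each library and median deviations of 0.02, 0.02 and -0.03.

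Genes of DNA replication and of mitosis were also low in replicate 1. Of the 22 DNA replication genes with a mean of at least 10, 13 were highest in replicate 2, against 34.2% of all genes at that level, and 14 were lowest in replicate 1, against 38.1%. Pcna, the sliding clamp of the replication fork, stood at 102, 112 and 98.0. Of 16 mitosis genes, 15 were lowest in replicate 1, against 38.1% of genes at that level, and Mki67 stood at 236, 302 and 282. The markers of dental epithelium were also highest in replicate 2, in 6 of 6 cases, against 34.2% of genes at that level. Markers of macrophages (4 of 4) and endothelium (4 of 4) were lowest in replicate 1, against 38.1% of genes at that level. Erythroid markers of any mean were lowest there too (3 of 3), against 34% of all genes. The endothelial markers differed from the DNA replication genes in being highest in replicate 3, in 4 of 4 cases, against 34.6% of genes at that level. The part of these cell types in the histone values was not tested.

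**Figure D5:**
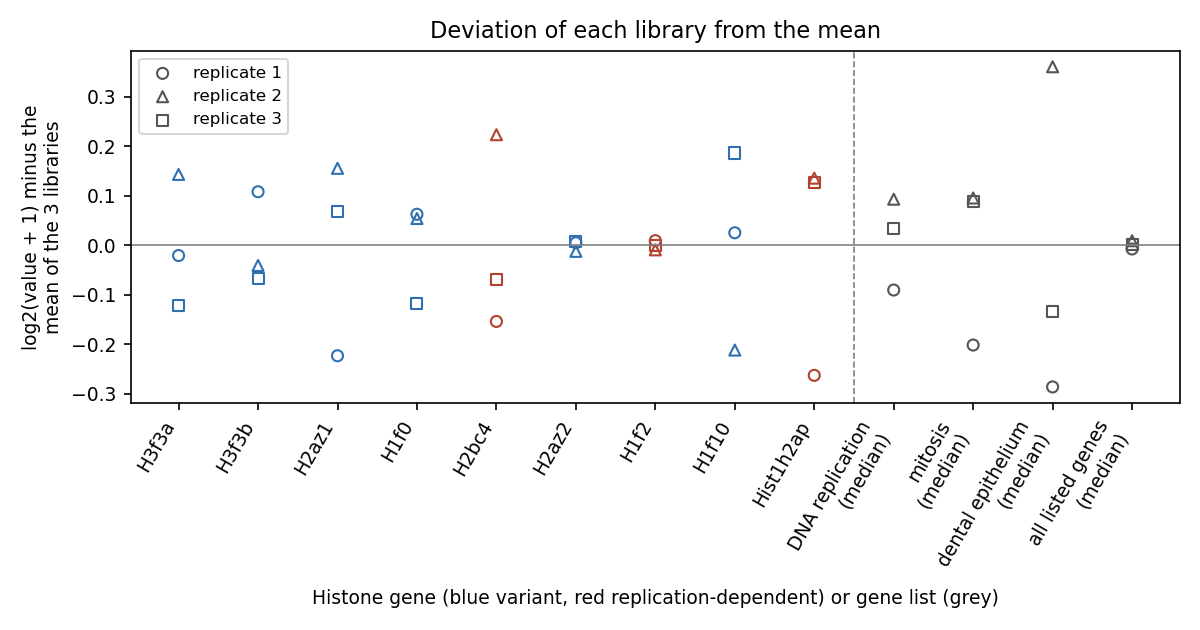
Deviation of each library from the gene mean, in log2(value + 1), for the 9 histone genes with a mean of at least 10 (blue variant, red replication-dependent) and as list medians (grey). H2bc4, H2az1 and H3f3a are highest in replicate 2, H1f2 and H2az2 lie near 0, and of the 4 medians drawn that of the epithelial markers has the widest range (odontoblast markers, with a range of 2.10, are not drawn).

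Of 13 listed genes for histone transcript processing, 11 had a mean of at least 10, against 66.5% of protein-coding genes. Slbp, which binds the stem-loop and was named after its values were seen, stood at 59.6, 64.2 and 57.2. The highest were Srrt, Cstf2 and Cpsf2, with means of 102, 78.9 and 75.6, and the last 2 belong to the machinery that cuts messages at the end. All 7 genes of the histone locus body, the nuclear site where the clusters are transcribed, reached 10. Npat, its scaffold, stood at 77.4, 87.0 and 80.2, with Gon4l (mean 79.6) and Casp8ap2 (60.2) next.

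Of 14 chaperones that deliver histones during replication, 11 had a mean of at least 10, a share near the 66.5% of protein-coding genes, led by Nap1l1 (306 ± 25.9), Rbbp4 (260 ± 20.9) and Ssrp1 (200.4 ± 7.29, SD, n = 3). All 14 chaperones and loaders of variants did so, against the same 66.5%, led by Atrx, which helps place the replacement H3, at 432, 464 and 390. Srcap, the ATPase that exchanges in H2A.Z, stood at 225, 225 and 217, and Hjurp, the loader of the centromeric H3, at 222, 212 and 188. That centromeric histone, Cenpa, stood at 28.2, 30.0 and 27.9. None of these list genes with a mean of at least 10 had an SD of log2(value + 1) above 0.5, as was so for all but 1.89% of genes at that level.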

How the data were processed

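RNA sequencing of 3 DKO libraries was available as 1 table. The deposited values are normalized gene signal, not whole counts, with the same 75th percentile in each column, as scaling to a common upper quartile gives, and not divided by length. Reads were aligned with TopHat2 2.0.8 to mm10, per the submitters' processing notes. The sources used here give no counter, annotation, strand setting, filter or handling of reads that match several places. Columns were matched to libraries by number. Of values up to 20 times the smallest, 82.6%, 82.4% and 82.5% lay within 0.1 of a whole multiple, below the 95% needed to recover reads, so no count test was run and depth is unknown.

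Histone class, exon length and transcripts came from GENCODE M21, matched by position for 19135 of 19381 genes, and promoters from RefSeq. Python 3.11.15, numpy 2.4.6 and pandas 2.3.3 were used. Levels were examined as log2(value + 1), spread at a mean of at least 10. Within-library differences used an exact permutation test that flips signs (two-sided), with Benjamini-Hochberg adjustment over 6 tests. Shared sequence was counted in 50-base stretches of transcripts. Members and lists were chosen with earlier results of these data known. Of 121 genes named in lists, 118 were found. Named genes were all variants, the 15 highest replication-dependent genes, the 2 highest of each family, and the 3 highest of each processing, locus body and chaperone list. For DNA replication, mitosis and the cell type markers, Pcna, Mki67 and Gli1 were given as examples in place of the 3 highest. Alternatives covered the minimum, length, pseudocount, scaling, total and each library left out. Scripts were tested on simulated data.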

Additional observations from a re-analysis of the deposited data

How the results depend on the processing

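Of 113 alternatives over 21 results, 89 were labelled the same. For tested differences this meant the same sign alone, with no threshold on p. Counts had to stay within 1.5 times, and shares within 1 SD over the libraries. Ranges of median deviations had to stay within 0.10, the median SD of all genes with a mean of at least 10. That exceeds the variant range itself, 0.051, so no fall in it could be labelled moved, and without replicate 3 it was 0.013. Log2 differences labelled the same also moved (the class difference was -3.51 as deposited, and H3f3b minus H3f3a -0.26). No paired analysis was possible because there is 1 group. Reversals of sign came in 3 cases: H3f3b minus H3f3a ran from -0.090 to 0.066 with 1 library left out, the latter without replicate 2, and Macroh2a1 minus Macroh2a2 was 0.72 as deposited and 0.79 by the longest coding transcript, a length chosen after seeing the data. The count of replication-dependent genes was 10 at a minimum of 1 and 0 at 100, and that of variants 10 with the 6 genes of older symbol, also added after seeing the data. The replication-dependent share was 0.0115% for members with a mean of at least 10 and 0.0537% per length. The variant share was 0.157% of all listed genes, 0.254% per length and 0.192% with the older symbols. With no minimum, 1 gene passed an SD of 0.5, and members were highest in replicates 1, 2 and 3 in 5, 21 and 10 cases and lowest in 16, 10 and 10. Rescaled to equal totals, 1 of 9 was highest in replicate 1, 5 lowest in replicate 1 and 1 lowest in replicate 2; rescaled by the median ratio, 1 was highest in replicate 3. The range over libraries of the replication-dependent median deviation, 0.29 over only 3 genes, was 0.0085 to 0.38 with 1 library left out (0.0085, 0.084 and 0.38 without replicates 1, 2 and 3). The causes were not tested. Depth is unknown, so counting error of low members could not be given.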

Other observations

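Rows set aside by gene type held a retrocopy of the replacement H3, H3f3c, a processed pseudogene at 14.1, 15.1 and 27.6. It was highest in replicate 3, the library in which H3f3a was lowest, and 245 of the 50-base stretches of H3f3a recur in it. Hist1h2al, a further processed pseudogene, was listed at 0.0291, 0.0275 and 0.648, the first 2 being the smallest value of those libraries. Of the older-symbol genes, H2aj stood at a mean of 12.6, H2aw at 12.2 and H2bu2 at 0.395. The H2aw transcript shares 708 exonic bases with Trim17.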
